A study of Homo sapiens with 6 samples.

Results

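The genes described here are ATF4, a transcription factor of the integrated stress response, and 9 genes that are known to lie downstream of it: SLC7A11, DDIT3, ATF3, CHAC1, TRIB3, ASNS, PSAT1, PHGDH and CEBPG. They were chosen by name, as the transcript clusters annotated with exactly 1 of these gene symbols. All 10 were found, each with 1 cluster, among 15949 genes with a cluster of their own. The comparison was between 3 arrays of PLC/PRF/5 cells transfected with siRNAs against SLU7 (siSLU7) and 3 arrays of the same cells transfected with siGL, an irrelevant control siRNA. The sample descriptions number the control siGL1 to siGL3 while the series design names siGL2, and the numbers were read here as replicate numbers. RNA was taken 48 h after transfection in both groups, with Lipofectamine RNAiMAX as the transfection reagent. PLC/PRF/5 is an established human hepatocellular carcinoma cell line, so the results concern a single tumour line, and SLU7 is a splicing factor that helps join the exons in the later step of splicing.

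ATF4 sits at the end of a pathway in which stress-activated kinases phosphorylate the translation initiation factor eIF2. General translation then slows, while short upstream reading frames in the ATF4 mRNA let the ribosome reach the ATF4 coding sequence, so that ATF4 protein is set largely by translation and its mRNA level is only a part of its control. ATF4 binds DNA with C/EBP family partners and raises genes for amino acid synthesis, amino acid import and glutathione supply, together with regulators that end or redirect the response. SLC7A11 is the transport subunit of the cystine/glutamate exchanger xCT, which brings in the cystine used to make glutathione.

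The Affymetrix Human Exon 1.0 ST array measured 18708 transcript clusters on the log2 scale, a cluster being a set of core probe sets of a gene summarised into 1 value. The arrays' medians lay between 6.61 and 6.63 log2 units and their lower quartiles between 4.86 and 4.98. Over all clusters, the group difference had a median standard error of 0.31. The smallest difference of any cluster that passed (limma adjusted p under 0.05) was 1.44 log2 units, up or down. A gene that did not pass may therefore still have changed. SLU7 itself was at 5.84, 5.58 and 6.21 log2 units in the siSLU7 arrays, against 7.89, 7.01 and 7.24 in the control arrays. The groups did not overlap, and the difference of -1.51 ± 0.31 (SE) log2 units, 2.84-fold lower, had a limma adjusted p of 0.0783 over all clusters. Of the hepatocyte and hepatoma markers, 12 were measured, and 7 or 8 of them lay above the array median on every array. Albumin (ALB) was among the dim ones, at 3.07 ± 0.30 log2 units in siSLU7 arrays and 3.87 ± 0.68 in control arrays (SD, n = 3 each), while APOA1 was at 10.62 ± 0.33 in siSLU7 arrays and 11.55 ± 0.29 in control arrays (SD, n = 3 each). Of the 12, 11 were lower with siSLU7 by their means, where 49.5% of all clusters were, and the median difference was -0.43 log2 units. None passed the test. The unadjusted p was under 0.05 for 3 of them, all lower, where 6.54% of all clusters were lower at that level. For 5 of them, all lower, the groups did not overlap, where 9.21% of all clusters lay so. The part of these markers in the results below was not tested. Of 5 measured blood and endothelial markers, at most 2 lay above the median of any array, and of 6 fibroblast and stellate markers 1 did on each array. On the first principal component, siSLU7 replicate 1 and control replicate 2 stood apart from the other 4 arrays, across the groups. Whether the replicates were separate cultures is not stated in the labels. The p-values therefore cover the array-to-array spread alone, which may be technical. In bulk RNA a lower share of expressing cells and less RNA per cell cannot be told apart.

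RefSeq promoter windows (GRCh38.p14, 250 bases before to 50 after the start of transcription) were at hand for 9 of the 10 genes, in 16 windows, and SLC7A11 had none. They were searched on both strands for TGATGNAA, the core letters of the C/EBP-ATF response element at which ATF4 and a C/EBP partner bind, where N is any base. The letters were present in 4 of the 16 windows, those of CEBPG, ASNS, CHAC1 and ATF3, against 3.62% of all 35116 windows. These windows are shown because they are the ones that hold the element. The element stands in capitals, and each sequence runs 5′ to 3′ in the direction of the gene.
CEBPG, chr19:33373863-33374162, plus strand: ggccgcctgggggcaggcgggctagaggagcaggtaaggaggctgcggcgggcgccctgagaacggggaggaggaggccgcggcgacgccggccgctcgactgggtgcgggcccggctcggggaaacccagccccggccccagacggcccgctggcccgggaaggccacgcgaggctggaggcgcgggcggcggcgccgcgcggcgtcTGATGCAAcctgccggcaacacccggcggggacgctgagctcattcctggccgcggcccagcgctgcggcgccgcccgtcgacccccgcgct
ASNS, chr7:97872359-97872658, minus strand: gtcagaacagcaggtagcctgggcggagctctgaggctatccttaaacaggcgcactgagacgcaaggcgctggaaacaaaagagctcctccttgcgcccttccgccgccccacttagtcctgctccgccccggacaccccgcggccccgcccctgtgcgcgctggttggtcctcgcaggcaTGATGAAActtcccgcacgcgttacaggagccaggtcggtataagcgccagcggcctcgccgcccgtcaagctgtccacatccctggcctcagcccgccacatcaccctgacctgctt
CHAC1, chr15:40953221-40953520, plus strand: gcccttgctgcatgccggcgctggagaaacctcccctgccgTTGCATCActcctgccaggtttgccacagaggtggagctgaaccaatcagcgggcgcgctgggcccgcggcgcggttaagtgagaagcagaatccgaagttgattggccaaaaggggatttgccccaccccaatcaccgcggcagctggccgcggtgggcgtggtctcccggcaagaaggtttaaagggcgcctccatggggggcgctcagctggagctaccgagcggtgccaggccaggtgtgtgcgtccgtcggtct
ATF3, chr1:212565157-212565456, plus strand: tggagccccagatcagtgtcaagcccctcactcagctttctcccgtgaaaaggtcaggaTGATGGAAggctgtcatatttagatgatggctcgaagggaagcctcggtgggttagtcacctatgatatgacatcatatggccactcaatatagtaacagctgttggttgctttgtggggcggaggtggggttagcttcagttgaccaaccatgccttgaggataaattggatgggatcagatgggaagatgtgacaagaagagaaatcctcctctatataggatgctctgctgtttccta

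The element began 42 bases before the start in CEBPG and 68 bases before it in ASNS, both times in the orientation TGATGNAA. In CHAC1 it lay on the opposite strand, beginning 209 bases before the start, and its letters TTGCATCA are the reverse complement of the TGATGCAA seen in CEBPG. In ATF3 it began 191 bases before the start of 1 of the gene's windows. The core letters of the cAMP response element, TGACG, occurred on either strand in 4 of the 16 windows, those of ATF4 and ASNS, against 24.6% of all windows, and did not overlap the other element. These windows lie in overlapping pairs that hold the same bases. By gene the letters occurred in 2 of 9, against 28.4% of all genes with a window. A match describes letters in a window and is neither a binding site nor a cause of a level.

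SLC7A11 (transcript cluster 2786361) rose after SLU7 siRNA. Its level was 8.40, 8.36 and 8.62 log2 units in the siSLU7 arrays, against 6.97, 6.43 and 6.34 in the control arrays. Every siSLU7 array lay more than 1 log2 unit above every control array. The mean was 8.46 ± 0.14 with siSLU7 and 6.58 ± 0.34 with control siRNA (SD, n = 3 each). The difference was 1.88 ± 0.27 (SE) log2 units, a 3.68-fold higher level with a 95% interval of 2.40 to 5.64, and a limma adjusted p of 0.0439 over all clusters. It ranked 36 of 18708 clusters by p-value and 38 by size of rise, in a table where 0.134% of clusters were called higher. By exact permutation of the arrays (two-sided), p was 0.1, the smallest that 3 against 3 allow. The size was 1.97 between siSLU7 replicate 1 and control replicate 2, the arrays that stand apart, and 1.83 in the 4 remaining arrays. The call did not survive the loss of any array: the limma adjusted p was 0.0962, 0.183 and 0.138 without siSLU7 replicate 1, 2 and 3, and 0.147, 0.0698 and 0.180 without control replicate 1, 2 and 3.

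**Figure D1:**
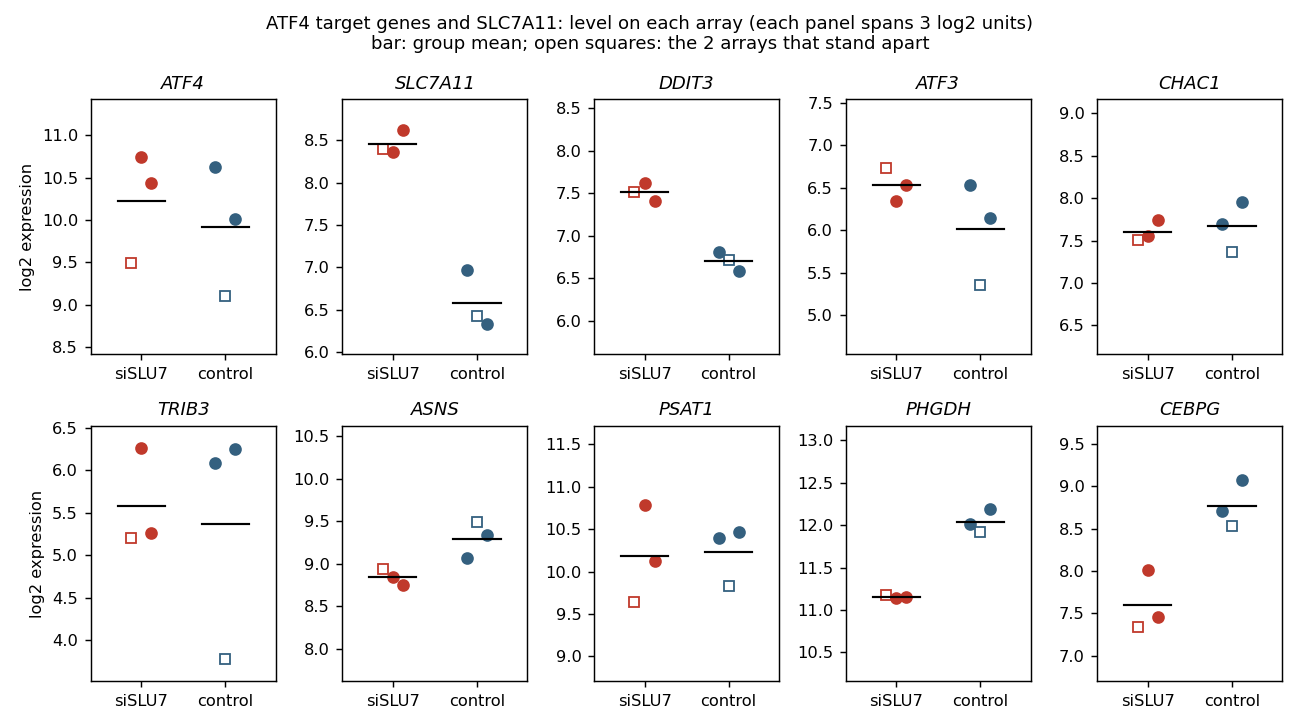
Log2 expression of each of the 10 genes on each array, siSLU7 left and control siRNA right, with bars at the group means and every panel spanning 3 log2 units. Open squares are siSLU7 replicate 1 and control replicate 2. SLC7A11 and DDIT3 lie higher in all 3 siSLU7 arrays and ASNS, PHGDH and CEBPG lower, while the groups of the other 5 genes overlap.

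Of the transcription factors and regulators, DDIT3 and CEBPG were the ones whose groups did not overlap, and they lay on opposite sides. DDIT3, which encodes CHOP, a C/EBP family factor linked to cell death under prolonged stress, was at 7.52, 7.63 and 7.40 log2 units in the siSLU7 arrays, against 6.80, 6.72 and 6.58 in the control arrays. All siSLU7 values were higher, with a spread within either group of 0.11 (SD, n = 3), and the difference was 0.81 ± 0.23 (SE), or 1.76-fold (limma adjusted p = 0.17). CEBPG, a C/EBP family protein that forms dimers with ATF4, was at 7.34, 8.02 and 7.46 log2 units with siSLU7, against 8.70, 8.53 and 9.07 with control siRNA. All siSLU7 values were lower, and the difference of -1.16 ± 0.29 (SE), or 2.24-fold lower with a 95% interval of 1.42 to 3.54, had a limma adjusted p of 0.123. Neither gene passed the test over all clusters.

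ATF4 mRNA did not separate the groups. It was at 9.49, 10.74 and 10.43 log2 units in the siSLU7 arrays, against 10.63, 9.10 and 10.01 in the control arrays. The lowest value of each group came from the arrays that stand apart, siSLU7 replicate 1 and control replicate 2. The difference of 0.31 ± 0.46 (SE) had a 95% interval of -0.74 to 1.36 log2 units and a limma adjusted p of 0.874. Without control replicate 2 the difference was -0.10. ATF3, a stress-induced factor of the ATF/CREB family, was at 6.73, 6.34 and 6.53 log2 units with siSLU7, against 6.53, 5.35 and 6.15 with control siRNA. The groups overlapped, and the difference of 0.52 ± 0.34 (SE; limma adjusted p = 0.599) came to 1.38 within the outlying pair of arrays and 0.10 within the remaining 4. TRIB3, a pseudokinase that feeds back on ATF4 and CHOP, was at 5.20, 6.26 and 5.26 log2 units with siSLU7, against 6.08, 3.77 and 6.25 with control siRNA. The single low value was that of control replicate 2, below the lower quartile of its array, and the difference of 0.21 ± 0.64 (SE; limma adjusted p = 0.953) was -0.59 without that array.

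The serine and asparagine synthesis enzymes lay lower with siSLU7 or did not separate, and none passed the test. PHGDH, which makes the first committed step of serine synthesis from a glycolytic intermediate, was at 11.17, 11.14 and 11.15 log2 units in the siSLU7 arrays, against 12.02, 11.92 and 12.18 in the control arrays. The siSLU7 values had an SD of 0.015 (n = 3) and all lay below the control values. The difference of -0.89 ± 0.23 (SE), or 1.85-fold lower with a 95% interval of 1.28 to 2.67, had a limma adjusted p of 0.141. PSAT1, the next enzyme of the same path, was at 9.64, 10.79 and 10.13 log2 units with siSLU7, against 10.39, 9.83 and 10.47 with control siRNA. The groups overlapped through the whole control range, and the difference of -0.05 ± 0.35 (SE; limma adjusted p = 0.984) left an interval of -0.84 to 0.75.

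ASNS, asparagine synthetase, was at 8.93, 8.84 and 8.75 log2 units with siSLU7, against 9.06, 9.49 and 9.33 with control siRNA. All siSLU7 values were lower, by a mean of -0.45 ± 0.24 (SE; limma adjusted p = 0.503). CHAC1, an enzyme that breaks down glutathione, was at 7.51, 7.55 and 7.74 log2 units with siSLU7, against 7.70, 7.37 and 7.96 with control siRNA. The groups overlapped, and the difference of -0.07 ± 0.26 (SE; limma adjusted p = 0.961) had an interval of -0.66 to 0.52 log2 units.

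**Figure D2:**
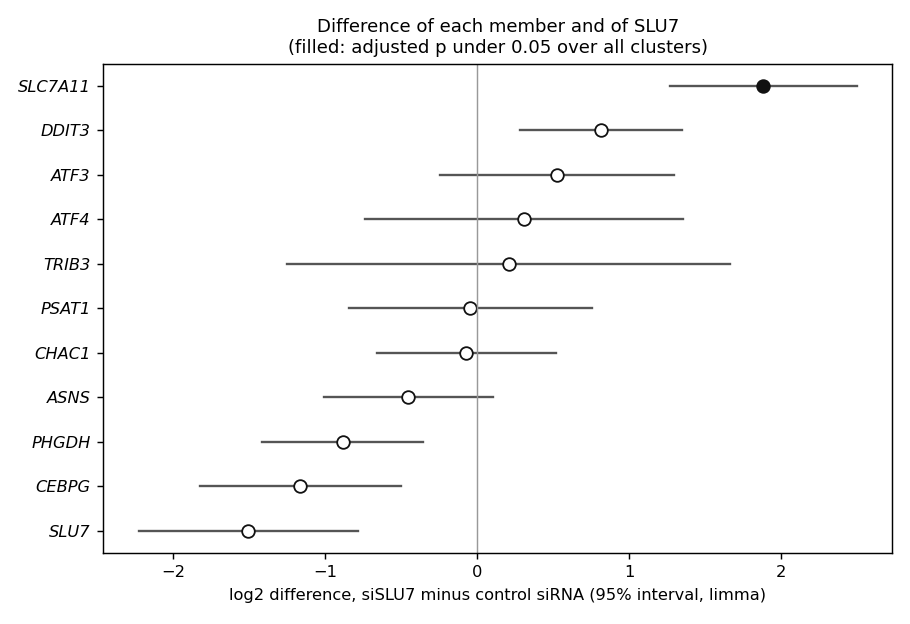
Log2 difference (siSLU7 minus control siRNA) of the 10 genes and of SLU7, with 95% intervals from limma. SLC7A11, the filled point at 1.88, is the one gene with an adjusted p under 0.05, and the intervals of DDIT3, PHGDH, CEBPG and SLU7 also lie on one side of 0.

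Over the 10 genes the differences ran from -1.16 to 1.88 log2 units, with 5 above 0 and 5 below 0, where 50.5% and 49.5% of all clusters lay. Their median was 0.08, against 0.00 over all clusters, and it was negative without control replicate 2 (-0.23) or siSLU7 replicate 2 (-0.093) and larger without control replicate 1 (0.30), control replicate 3 (0.21) or siSLU7 replicate 1 (0.31). SLC7A11 was the only one of the 10 that passed at an adjusted p under 0.05, where 0.433% of all clusters passed. At an unadjusted p under 0.05, 2 were higher (SLC7A11 and DDIT3) and 2 lower (PHGDH and CEBPG), where 13.1% of all clusters passed. The groups did not overlap for 5 of the 10, which held for 18.9% of all clusters: 2 were higher, where 9.64% of all clusters were, and 3 lower, where 9.21% were. Because the genes were chosen with earlier results of these data known, these counts describe the 10 genes only. The 4 genes with a C/EBP-ATF element in their windows were spread over the range: CEBPG at -1.16, ASNS at -0.45, CHAC1 at -0.07 and ATF3 at 0.52.

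The separation of the arrays on the first principal component ran through part of the group. Averaged over siSLU7 replicate 1 and control replicate 2, TRIB3 was -1.48, ATF4 -1.16 and PSAT1 -0.71 log2 units relative to the mean of the other 4 arrays. The same quantity was -0.16 for SLC7A11, 0.01 for DDIT3, -0.08 for PHGDH and -0.38 for CEBPG. Within the pair and within the other 4 arrays, the siSLU7 minus control difference was 0.80 and 0.82 for DDIT3. It was -0.75 and -0.95 for PHGDH, and -1.19 and -1.15 for CEBPG. The pair holds 1 array of each group, so its difference has no error. For TRIB3 the values were 1.43 within the pair and -0.41 within the other 4.

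**Figure D3:**
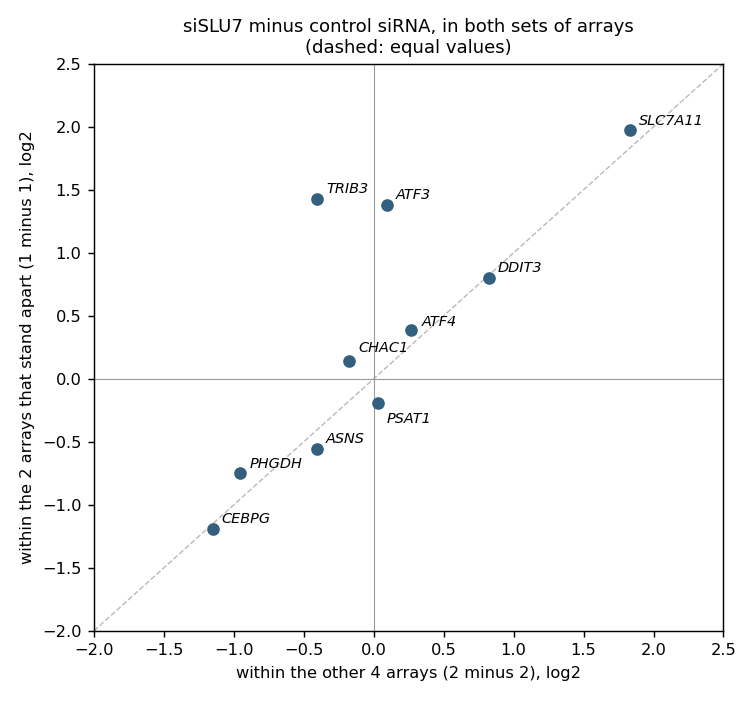
Log2 difference (siSLU7 minus control siRNA) of each gene within siSLU7 replicate 1 and control replicate 2 (vertical axis) against that within the other 4 arrays (horizontal axis), with a dashed line of equal values. TRIB3 (1.43 against -0.41) and ATF3 (1.38 against 0.10) lie farthest from the line.

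Around these 10 genes, 126 other genes of the pathway were measured in 9 lists. Of them 1 passed the test, where 0.433% of all clusters passed. PCK2, the mitochondrial phosphoenolpyruvate carboxykinase and a known ATF4 target, fell to 9.19, 9.53 and 9.43 log2 units in the siSLU7 arrays, against 10.91, 11.19 and 11.26 in the control arrays. The fall was 3.34-fold, with a difference of -1.74 ± 0.25 (SE) and a limma adjusted p of 0.0436, and SLC7A11 and PCK2 thus passed in opposite directions. No cluster of the table, PCK2 included, passed in limma without any 1 of the 6 arrays (1833 to 2573 at an unadjusted p under 0.05). Of the 126 genes, 52 were higher by their means and 74 lower, where 50.5% and 49.5% of all clusters were. Their median difference was -0.12 log2 units. At an unadjusted p under 0.05, 9 were higher, where 6.55% of all clusters were, and 19 lower, where 6.54% were. The same shares apply to the counts by direction and the unadjusted counts of each list below. Because the lists were drawn up with earlier results of these data known, the counts describe the listed genes only.

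PCK2 belongs to the 13 measured amino acid and one-carbon enzymes downstream of ATF4, of which 11 were lower by their means (median -0.42 log2 units, -0.67 without control replicate 2 and -0.25 without control replicate 3). In the same list ALDH18A1, which starts proline synthesis from glutamate, had a difference of -1.21 ± 0.24 (SE; limma adjusted p = 0.0731), and SHMT2, the mitochondrial serine hydroxymethyltransferase, one of -0.84 ± 0.24 (SE; limma adjusted p = 0.164). MTHFD2, the mitochondrial folate enzyme that follows SHMT2, had a positive one of 0.71 ± 0.27 (SE; limma adjusted p = 0.311). These 3 were singled out after their values were seen. Of 11 measured aminoacyl-tRNA synthetases and the tRNA exporter XPOT, which load and move tRNA for translation, 7 were below 0, the median was -0.22 (-0.15 without control replicate 3) and none passed (1 lower at an unadjusted p under 0.05). AARS1, the alanyl-tRNA synthetase, was at -0.66 ± 0.24 (SE; limma adjusted p = 0.288), and VARS1 and EPRS1, which load valine and both glutamate and proline, were at -0.62 and -0.60. Of 9 other amino acid transporters of the pathway, 7 were below 0 and none passed (1 lower at an unadjusted p under 0.05). Their median was -0.42, and -0.16 without control replicate 2. SLC1A5, a glutamine carrier, was at -0.79 ± 0.34 (SE; limma adjusted p = 0.364), and SLC7A6, which was dim in both groups, at -1.13 ± 0.53 (SE; limma adjusted p = 0.427). SLC1A4, a carrier of serine and alanine, was at -0.73 ± 0.35 (SE; limma adjusted p = 0.439).

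The 20 regulators, secreted factors and other targets of ATF4 were evenly split, with 10 above and 10 below 0, a median of -0.03 and none passing (2 higher and 4 lower at an unadjusted p under 0.05). DDIT4 (REDD1), an inhibitor of the growth kinase complex mTORC1 that hypoxia also induces, was at 5.50, 6.46 and 6.50 log2 units in the siSLU7 arrays, against 9.54, 8.02 and 8.63 in the control arrays. Those groups lay far apart, by -2.58 ± 0.44 (SE), with a limma adjusted p of 0.0522 just outside the threshold. TNFRSF10B, a death receptor raised by CHOP, was at -1.12 ± 0.25 (SE; limma adjusted p = 0.0979), and BBC3, which encodes the cell death protein PUMA, at 0.92 ± 0.29 (SE; limma adjusted p = 0.201). The BBC3 control values of 4.79, 4.81 and 4.11 log2 units lay under the lower quartiles of their arrays, so the size of its difference is uncertain.

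Upstream, none of 18 measured eIF2 kinases, eIF2 and eIF2B subunits and eIF2 phosphatase genes passed, with 9 on each side of 0, a median of 0.02, and 1 higher and 2 lower at an unadjusted p under 0.05. EIF2AK4 (GCN2), the kinase that senses uncharged tRNA, was at 0.98 ± 0.39 (SE; limma adjusted p = 0.324). Its control values of 4.37, 4.94 and 4.93 log2 units lay near or under the lower quartiles of their arrays, so the size of that difference is uncertain. PPP1CB, a catalytic phosphatase subunit, was at -1.21 ± 0.40 (SE; limma adjusted p = 0.231), and DNAJC3, an inhibitor of the eIF2 kinases, at -0.64 ± 0.28 (SE; limma adjusted p = 0.375). None of 16 bZIP partners and degradation factors of ATF4 passed (1 lower at an unadjusted p under 0.05), with a median of -0.03. BTRC, the F-box protein that marks ATF4 for destruction, was at -1.15 ± 0.36 (SE; limma adjusted p = 0.212). The small MAF protein MAFF was at 0.38 and the C/EBP factor CEBPD at -0.36.

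SLC7A11 is also a target of NRF2, the oxidative stress factor, and 14 genes of the NRF2 axis and other regulators of SLC7A11 were measured. None passed, 8 were above 0 and the median was 0.12 (0.025 without control replicate 1). At an unadjusted p under 0.05, 3 were higher and none lower. TXNRD1, the thioredoxin reductase and an NRF2 target, was at 10.88, 11.19 and 10.82 log2 units in the siSLU7 arrays, against 9.98, 10.00 and 10.18 in the control arrays. All siSLU7 values were higher, by 0.91 ± 0.24 (SE; limma adjusted p = 0.145). OSGIN1 was at 0.92 ± 0.26 (SE; limma adjusted p = 0.157), and KEAP1, the adaptor that has NRF2 degraded, at 0.94 ± 0.33 (SE; limma adjusted p = 0.26). The other measured NRF2 targets were at 0.28 (HMOX1), 0.19 (SRXN1), 0.06 (GCLM), -0.003 (NQO1), -0.03 (GCLC), -0.13 (SLC48A1) and -0.34 (ME1).

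In glutathione synthesis and use, 7 of 13 measured genes were above 0 and none passed (1 higher and 2 lower at an unadjusted p under 0.05). The median of 0.06 was 0.12 without control replicate 1 and was negative without control replicate 2 (-0.37), control replicate 3 (-0.034), siSLU7 replicate 2 (-0.13) or siSLU7 replicate 3 (-0.12). GSR, which regenerates reduced glutathione, was at -0.87 ± 0.26 (SE; limma adjusted p = 0.192), and ANPEP, an aminopeptidase, at -0.96 ± 0.24 (SE; limma adjusted p = 0.126). CHAC2, the paralog of CHAC1, was at 4.84, 2.83 and 3.02 log2 units with siSLU7, against 1.53, 1.51 and 1.34 with control siRNA. All these values lie under the lower quartile of the arrays, so the size of its difference, 2.10 ± 0.50 (SE; limma adjusted p = 0.108), is uncertain. In the other arms of the unfolded protein response, 9 of 12 genes were negative, the median was -0.49 and none passed (1 higher and 4 lower at an unadjusted p under 0.05). HYOU1, an endoplasmic reticulum chaperone, was at -1.07 ± 0.28 (SE; limma adjusted p = 0.144), PDIA4, a disulfide isomerase, at -0.81 ± 0.30 (SE; limma adjusted p = 0.291), and the stress sensor ATF6 at 0.66 ± 0.26 (SE; limma adjusted p = 0.332).

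**Figure D4:**
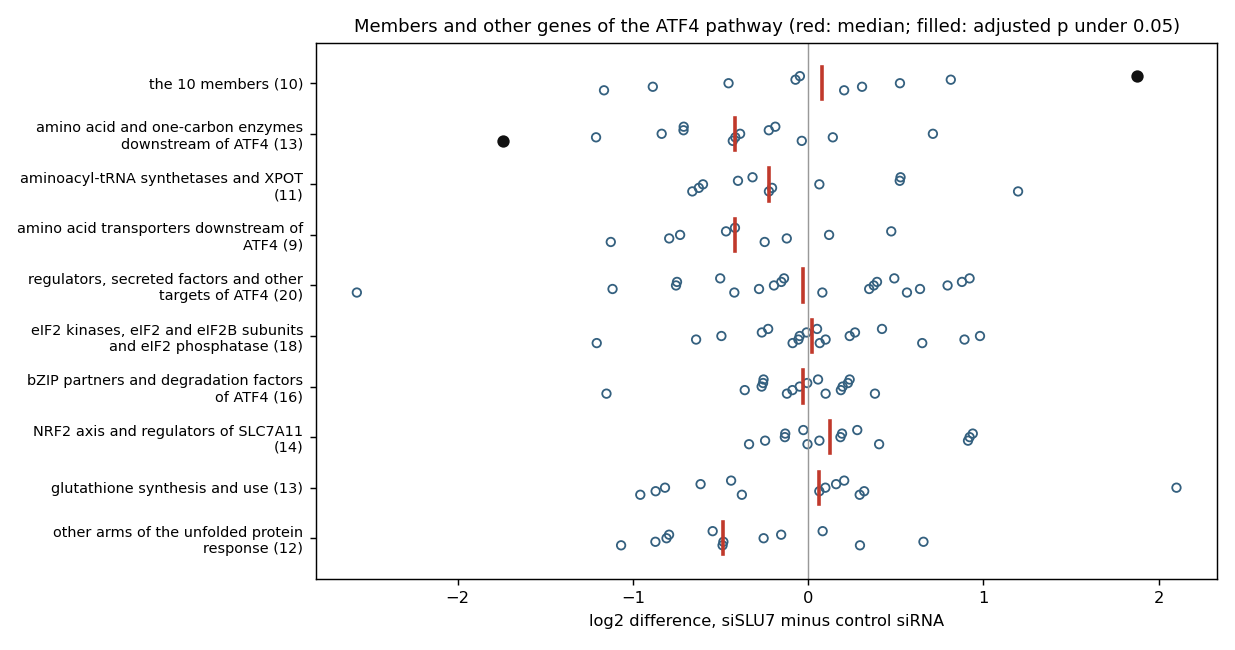
Log2 difference (siSLU7 minus control siRNA) of each measured gene, for the 10 genes at the top and the 9 lists under them, with the number of genes in brackets and red bars at the medians. The filled points are SLC7A11 at 1.88 and PCK2 at -1.74, and the list medians lie between -0.49 and 0.12.

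The genes whose levels were most like that of SLC7A11 over the 6 arrays, by Pearson's correlation, were TOP1 (r = 0.995), TOMM5 (0.994) and UGDH (0.994), which encode a DNA topoisomerase, a subunit of the mitochondrial import pore and UDP-glucose dehydrogenase. TOP1 was at 10.21, 10.17 and 10.26 log2 units with siSLU7, against 9.84, 9.58 and 9.60 with control siRNA, which is the order of the groups seen in SLC7A11. For ATF4 they were CCNB1 (r = 0.995), HCCS (0.993) and COA3 (0.993), which encode the mitotic cyclin B1, the enzyme that attaches heme to cytochrome c and an assembly factor of cytochrome c oxidase. CCNB1 was at 8.20, 9.39 and 9.18 log2 units with siSLU7, against 9.24, 7.69 and 8.75 with control siRNA, lowest in the same pair of arrays as ATF4. With 6 arrays, which the genes share, and all single-symbol clusters searched, these values are descriptions only.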

How the data were processed

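Total RNA from 3 siSLU7 and 3 control siRNA samples of PLC/PRF/5 cells was labelled and put on Human Exon 1.0 ST arrays of Affymetrix with a biotin label, 1 sample per array. The deposited values are log2 expression per transcript cluster, made by the authors with RMA per the submitters' processing notes and with the aroma.affymetrix core chip definition per the labels. No build or annotation release is stated in the labels used here. Since 1 value sums up the core probe sets, altered exon use may show up as an altered level.

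Clusters were named from GEO's platform annotation: 16287 of 18708 had 1 gene symbol, of which 2179 were updated through the RefSeq table of GRCh38.p14. Where a gene had several clusters, the one with the highest mean was used. Of 136 listed pathway genes, 126 were measured this way, and the others were not analysed here. Groups were compared with limma 3.58.1 (R 4.3.3; lmFit, then eBayes without trend; no covariate and no intensity filter). P-values were adjusted by Benjamini-Hochberg across the 18708 clusters, and 0.05 was the threshold. The procedure was tested on simulated data. Folds were computed from the log2 differences. Exact permutation tests over the arrays were two-sided. No pair of arrays shared the value of more than 9 clusters.

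The text names the 10 genes, SLU7, the called members of each list or the genes with the smallest unadjusted p where none was called (the 3 smallest), and the 3 clusters most correlated with SLC7A11 and with ATF4. ALDH18A1, SHMT2, MTHFD2, the markers ALB and APOA1, and further genes of the NRF2 list are named beyond this rule, after their values were seen. The genes and lists were chosen with earlier results of these data known. Alternatives were a replicate block, quantile normalization, a filter on dim clusters, centring on medians, array weights, a robust eBayes fit with trend, the mean of a gene's clusters, a threshold of 0.01, omission of each array in turn, a block for the pair of arrays that stand apart, and the other 4 arrays alone. Precision is limited by the number of arrays.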

Additional observations from a re-analysis of the deposited data

How the results depend on the processing

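The rise of SLC7A11 kept its direction in all 16 alternatives, with differences from 1.76 to 2.075, and stayed under the threshold in 7 of them. As its groups did not overlap, leaving out arrays could not reverse the direction, and several other settings leave the difference at 1.88. The direction was therefore largely fixed in advance. SLC7A11 did not pass at a threshold of 0.01 (1.88), in the other 4 arrays alone (1.835, limma adjusted p = 0.113) or without any 1 array (1.76 to 2.075, adjusted p from 0.0698 to 0.183). With the replicate block the difference was 1.88 and the adjusted p 0.165. Same-numbered arrays did not deviate together (correlations of their deviations of -0.38, -0.31 and 0.14). With 3 arrays per group, and differently numbered arrays standing apart, this cannot tell whether the numbers pair the samples. With the replicate block, at a threshold of 0.01, in the 4 arrays and without any 1 array, 0 clusters were higher and 0 lower, which includes 0 of the 10 genes and 0 of the listed genes (at an unadjusted p under 0.05, 1845 clusters with the block, 2922 in the 4 arrays and 1833 to 2573 without 1 array). Elsewhere the counts of higher and lower clusters, 25 and 56 in the main fit, were 29 and 71 with quantile normalization and 25 and 56 with median centring. With the mean of a gene's clusters they were 22 and 66 genes. In the remaining 4 settings the counts were larger. They were 121 and 203 without dim clusters (those under the 0.25 quantile of mean level), and 173 and 268 with trend and robust shrinkage. Array weights gave 221 and 354, and the pair of arrays as a block gave 357 and 426. That block was read off these same arrays, so its p-values are likely too small. In these 4 settings the limma adjusted p of SLU7 passed (difference -1.51, and -1.61 with array weights), and 3, 3, 6 and 8 listed genes were lower, with 1 higher under trend and robust shrinkage and 1 with the pair as a block. PHGDH passed as lower with trend and robust shrinkage (adjusted p = 0.0232), array weights (0.0466) and the pair as a block (0.0474), and CEBPG with that block (0.047), which makes 1, 1 and 2 of the 10 genes. DDIT3 did not pass in any (0.0615 to 0.459). Small differences changed sign. Without 1 array, ATF4 ran from -0.0979 (without control replicate 2) to 0.674, CHAC1 from -0.224 to 0.0693 (without control replicate 3), TRIB3 from -0.592 (without control replicate 2, and also negative without siSLU7 replicate 2) to 0.646, and PSAT1 from -0.348 to 0.226 (without siSLU7 replicate 1, and also positive without control replicate 1 or 3). With array weights TRIB3 was -0.0729 and PSAT1 0.0638, and in the 4 arrays -0.406 and 0.0276. The cause was not tested. The groups did not overlap for 5 of the 10 genes in each setting but 1 (6 without control replicate 1). Leaving out arrays cannot make separate groups overlap, and several other settings keep the values unchanged. In those settings the count could not fall. Each of the 10 genes has a single cluster, and all 10 passed the filter on dim clusters. The medians of the 9 lists kept their sign in all 16 alternatives for 5 lists. The sign changed in 3 alternatives for the regulators and secreted factors (-0.15 to 0.12), 3 for the eIF2 list (-0.035 to 0.12), 5 for the bZIP list (-0.060 to 0.026) and 7 for glutathione (-0.37 to 0.12). The median of the 10 genes changed sign in 4. With either block, with trend and robust shrinkage and at the threshold of 0.01 every difference is unchanged, so no sign could change there. The promoter search gave 2 genes with TGACG, against 4 with TGATGNAA.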
